A study of Mus musculus with 2 samples.

Results

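The genes described here are 10 components of fibroblast growth factor (FGF) signalling, namely the receptors Fgfr1 and Fgfr2, the feedback inhibitors Spry1, Spry2, Spry4, Spred1, Spred2 and Dusp6, and the ETS transcription factors Etv4 and Etv5. They were taken by name, and each was examined on mm10 for peaks of Arid1b chromatin immunoprecipitation sequencing (ChIP-seq) inside the gene or up to 10 kb from it, called near the gene here. In all, 21 of the 8318 peaks in the deposited list met this rule, and they lay at 8 of the 10 genes, among 21887 protein-coding genes on the reference. The study concerns Arid1a, Plagl1 and Hedgehog signalling in tooth root progenitors, and its sample labels name an antibody against Arid1b, the paralogue of Arid1a in BAF chromatin remodelling complexes. An Arid1b ChIP library was set against an input library made with no antibody, 1 of each. Both are labelled dental mesenchyme cells, strain C57BL/6, and came from primary cells of the apical end of mandibular first molars of wild-type mice at postnatal days 3.5 to 7.5, cultured with 10% serum. The series also describes Gli1-CreER;Arid1a fl/fl mice, which were not analysed here, so every value describes wild-type cells.

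FGF ligands bind their receptors together with heparan sulphate, and the activated receptor tyrosine kinases signal through adaptors to RAS and the kinases RAF, MEK and ERK. ERK activity switches on genes for its own inhibitors. Sprouty and Spred proteins act on the RAS-RAF step, Dusp6 is a phosphatase that inactivates ERK in the cytoplasm, and Etv4 and Etv5 are transcription factors that carry part of the response. In the mouse tooth, FGFs pass between epithelium and mesenchyme, and loss of Spry2 or Spry4 is known to allow extra teeth in the toothless gap of the jaw.

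Values of peaks are the fold of the ChIP over the expected input level at the summit, as the authors' peak caller gave it, followed by an exact Poisson 95% interval computed from the summit pileup. With 1 library a group there is no replicate check, and the intervals cover counting error of the ChIP only. A summit is the highest point of a peak that passed the caller's threshold, and the intervals make no allowance for that selection. Fragments need not be independent molecules. The summit pileups of the 21 peaks ran between 26 and 63 fragments, with a median of 40, against a median of 38 over all 8318 peaks.

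Start sites and promoter sequence were available for 7 of the 10 genes from RefSeq (GRCm38.p6, the assembly behind mm10). The windows of 300 bases below run from 250 bases before the start site into the first 50 bases of the transcript, 5′ to 3′, on the strand of the gene. Capitals mark bases under an Arid1b peak and lower case bases outside any peak. Spred1 (chr2:117120821-117121120, plus strand) and Etv5 (chr16:22439521-22439820, minus strand) are shown because a peak ran across the start site. Spry2 (chr14:105896770-105897069, minus strand) and Dusp6 (chr10:99262981-99263280, plus strand) are shown because peaks stood on both sides of it, and Fgfr2 (chr7:130266759-130267058, minus strand) because it had no peak. Spry1, where a peak also covered the start site, and Spred2, with peaks on both sides of it, were not printed.
Spred1: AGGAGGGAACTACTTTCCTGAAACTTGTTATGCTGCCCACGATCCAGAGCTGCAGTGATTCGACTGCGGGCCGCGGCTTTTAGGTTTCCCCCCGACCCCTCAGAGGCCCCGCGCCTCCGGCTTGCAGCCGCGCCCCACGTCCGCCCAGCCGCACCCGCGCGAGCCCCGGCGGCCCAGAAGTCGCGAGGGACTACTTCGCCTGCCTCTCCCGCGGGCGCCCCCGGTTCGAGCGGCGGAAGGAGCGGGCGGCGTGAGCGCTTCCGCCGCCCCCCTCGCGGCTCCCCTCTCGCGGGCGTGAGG
Etv5: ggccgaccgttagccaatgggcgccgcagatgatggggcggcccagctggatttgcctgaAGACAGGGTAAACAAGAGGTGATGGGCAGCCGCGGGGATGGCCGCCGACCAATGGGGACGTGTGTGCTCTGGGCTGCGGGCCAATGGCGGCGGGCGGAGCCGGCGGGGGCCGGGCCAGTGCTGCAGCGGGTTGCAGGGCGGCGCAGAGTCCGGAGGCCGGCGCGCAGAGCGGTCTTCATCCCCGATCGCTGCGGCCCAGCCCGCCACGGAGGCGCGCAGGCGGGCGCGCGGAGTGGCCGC
Spry2: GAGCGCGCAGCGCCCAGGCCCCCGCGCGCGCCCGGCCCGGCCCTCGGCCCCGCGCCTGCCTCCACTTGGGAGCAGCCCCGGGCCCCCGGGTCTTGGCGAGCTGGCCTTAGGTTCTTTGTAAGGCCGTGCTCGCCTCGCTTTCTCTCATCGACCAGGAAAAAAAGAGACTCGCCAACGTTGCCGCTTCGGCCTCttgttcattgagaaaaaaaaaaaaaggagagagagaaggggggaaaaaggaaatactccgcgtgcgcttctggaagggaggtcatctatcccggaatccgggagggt
Dusp6: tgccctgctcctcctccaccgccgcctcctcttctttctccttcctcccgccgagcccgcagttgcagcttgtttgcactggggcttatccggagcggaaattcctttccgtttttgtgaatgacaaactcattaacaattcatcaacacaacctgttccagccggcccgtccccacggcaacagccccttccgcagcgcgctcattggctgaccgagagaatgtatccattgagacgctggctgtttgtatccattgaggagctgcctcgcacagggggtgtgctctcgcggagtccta
Fgfr2: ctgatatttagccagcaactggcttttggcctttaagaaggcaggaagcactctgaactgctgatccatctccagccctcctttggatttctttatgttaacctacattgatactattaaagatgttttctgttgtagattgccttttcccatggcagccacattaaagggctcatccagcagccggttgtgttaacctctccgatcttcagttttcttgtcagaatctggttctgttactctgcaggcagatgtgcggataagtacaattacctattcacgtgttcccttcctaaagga

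These windows differed in composition. Peaks covered 300 of the 300 bases at Spred1, 240 at Etv5 and 193 at Spry2, against 0 at Dusp6 and 0 at Fgfr2. The Spred1 window was 72.3% G and C with 40 CpG dinucleotides, and the Etv5 window 74.0% with 37. The Spry2 window held 62.7% and 28 CpG, and Dusp6 57.3% and 19. The Fgfr2 window was 43.7% G and C with 4 CpG. Of the promoter windows of protein-coding genes, 23.9% held fewer, and their median was 13. Of the windows not printed, Spry1 held 29 CpG with 77 bases under a peak and Spred2 held 17 with 0. A further start site inside Etv5 held 19 with 0.

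Among the genes examined, 8 of 10 (80.0%) had an Arid1b peak near the gene, where 31.7% of all protein-coding genes did. The same 8 genes had peaks reaching to 1 kb or less from a gene end, against 22.2% of all protein-coding genes. The 10 genes were chosen with earlier results of these data known, so these shares cannot measure an enrichment. All peaks were close to their genes. The farthest, upstream of Spred2, had its edge 3748 bp from the gene, and the nearest peak beyond the limit of 10 kb stood 20658 bp from Dusp6, with a fold of 4.13 (2.97 to 5.61). Of the 21 summits, 13 lay inside the gene and 8 outside it, and 15 (71.4%) lay within 1 kb of an end of their gene. Over all peaks, 59.8% of summits lay within 1 kb of an end of some protein-coding gene, which is a wider target than the ends of a given gene. The reference table gives no exons, so inside a gene means between its outer ends.

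**Figure D1:**
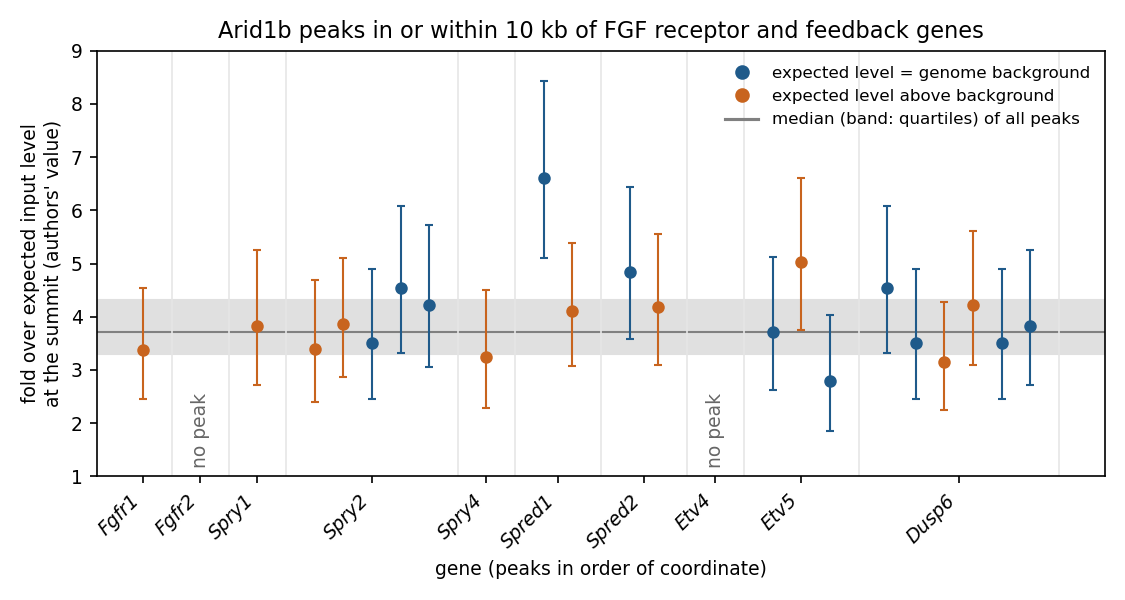
Fold over the expected input level at the summit (y axis) for each of the 21 Arid1b peaks, grouped by gene (x axis), with exact Poisson 95% intervals of 1 ChIP library; the line and band are the median 3.72 and quartiles 3.30 and 4.32 of all 8318 peaks. The first Spred1 peak, at 6.61, stands highest, and Fgfr2 and Etv4 have no peak.

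Folds at the 21 peaks ran between 2.79 and 6.61 with a median of 3.82, against a median of 3.72 and quartiles of 3.30 and 4.32 over all peaks. Most were of ordinary strength. The intervals of 19 of the 21 contained the median of all peaks, as did those of 85.5% of all peaks. The 2 whose intervals lay above it were the stronger peaks of Spred1 and Etv5. Per gene, the highest peak of the 8 genes had a median fold of 4.54, against 4.03 over all protein-coding genes with a peak. A highest value tends to be larger where a gene has more peaks. Just 1 peak was present at 3 of the 8 genes, and at 4459 of the 6943 protein-coding genes with a peak.

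Of the receptor genes, Fgfr1 had 1 peak and Fgfr2 had none. Fgfr1, at chr8:25518759-25575718, encodes the main FGF receptor of mesenchymal cells. Its peak, at chr8:25519059-25519278, had its summit inside the gene 415 bp from the low-coordinate end, with a fold of 3.38 (2.46 to 4.54). The summit pileup was 42 fragments, and the expected level was 11.74, the highest of the 21 peaks and above the genome background of 8.68. A long noncoding RNA gene, Gm31288, begins 514 bp from the summit, so the peak lies near that gene too. Next to Fgfr1 there were 3 more peaks within 100 kb, the nearest 21404 bp away inside Letm2 with 5.58 (4.20 to 7.26) and the others in Nsd3.

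Fgfr2, at chr7:130162451-130266808, encodes the receptor whose splice forms divide between epithelium and mesenchyme. It had no peak in its 104358 bp and none within 100 kb. The nearest peak lay 252387 bp away, inside Ate1, at 3.51 (2.53 to 4.75). No list of peaks below the authors' threshold was used here, so weaker signal at Fgfr2 was not detectable in these data.

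Among the Sprouty genes, which encode inhibitors of receptor tyrosine kinase signalling, Spry2 had 5 peaks in the authors' list, and 1 when peaks closer than 500 bp were merged. The 5 peaks of Spry2, a gene of 4873 bp at chr14:105891947-105896819, lay within 2850 bp around its start site. Upstream, summits lay at 730 bp with a fold of 4.23 (3.05 to 5.73) and at 148 bp with 4.54 (3.32 to 6.08). Downstream they lay at 219 bp with 3.51 (2.45 to 4.89), at 680 bp with 3.86 (2.86 to 5.11) and at 1628 bp with 3.40 (2.39 to 4.69). All 5 intervals overlapped, so the peaks could not be ranked at this depth. The start base itself lay in the gap of 164 bp between the peaks at 148 bp upstream and 219 bp downstream, as the lower-case run at the end of the printed Spry2 window shows.

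Spry1 and Spry4 had 1 peak each. At Spry1, chr3:37639947-37644599, the peak at chr3:37639920-37640368 covered the start site and had its summit 145 bp into the gene, with a fold of 3.82 (2.71 to 5.25). At Spry4, chr18:38586247-38601347, the peak at chr18:38600524-38600872 reached 3.25 (2.28 to 4.51), with its summit 538 bp inside the high-coordinate end. The neighbouring gene Arhgap26 begins 808 bp from that summit, so the peak is within 1 kb of both genes and which of them it belongs to was not tested.

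Both Spred genes, for Sprouty-related proteins that recruit the RAS inhibitor neurofibromin, carried 2 peaks. The strongest of the 21 peaks was at Spred1 (gene at chr2:117121071-117182279), at chr2:117120506-117121273. It was 768 bp wide, covered the start site and had its summit 128 bp upstream, with a fold of 6.61 (5.10 to 8.43) and a -log10 q of 27.8. It ranked 184 among 8318 peaks, and 97.7% of them had a lower fold. Its interval lay above those of 8 of the other 20 peaks and overlapped those of 12. The second Spred1 peak, 189 bp further into the gene, was 820 bp wide and had a fold of 4.10 (3.07 to 5.38).

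At Spred2, chr11:19924442-20024026, the stronger peak lay away from the start site. It stood at chr11:19919822-19920694, with its summit 3940 bp upstream and a fold of 4.85 (3.58 to 6.44). The other, at chr11:19924549-19924770, began 107 bp after the start base and had its summit 201 bp into the gene, with 4.19 (3.09 to 5.56). The intervals of the pair overlapped. No peak touched the 300-base promoter window of Spred2.

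Etv5 and Etv4, closely related ETS factors of the PEA3 group, differed in that Etv5 had 3 peaks and Etv4 had 0. Etv5 (chr16:22381313-22439570) had its strongest peak at chr16:22439303-22439760, which covered the start site and had its summit 127 bp into the gene, with a fold of 5.03 (3.76 to 6.60). It was flanked by a peak with its summit 515 bp into the gene at 3.72 (2.62 to 5.13) and another 621 bp upstream at 2.79 (1.86 to 4.04). The last was the weakest of the 21, with a -log10 q of 3.36. Etv4 (chr11:101769747-101785310) had its nearest peak 21712 bp away, at chr11:101807022-101807313 with 4.08 (2.95 to 5.50), and no protein-coding gene lay nearer to that peak than Etv4 itself. Whether Etv4 and Etv5 differ in signal below the threshold was not tested.

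Dusp6, the ERK phosphatase gene at chr10:99263231-99267489, had the most peaks of the 10 genes, with 6 over 7731 bp. Upstream of the start site, summits lay at 1665 bp with a fold of 4.54 (3.32 to 6.08) and at 906 bp with 3.51 (2.45 to 4.89). Within the gene, a peak of 900 bp, the widest of the 21, had its summit 900 bp from the start site with 3.14 (2.24 to 4.28), and others lay at 1429 bp with 4.22 (3.10 to 5.61) and at 2335 bp with 3.51 (2.45 to 4.89). The sixth lay 1287 bp beyond the gene, inside the long noncoding RNA gene Gm34921, with 3.82 (2.71 to 5.25). The start site of Dusp6 was free of peaks. It lay in a gap of 934 bp, of which 114 bp separated the start base from the peak in the gene. All 6 intervals overlapped.

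**Figure D2:**
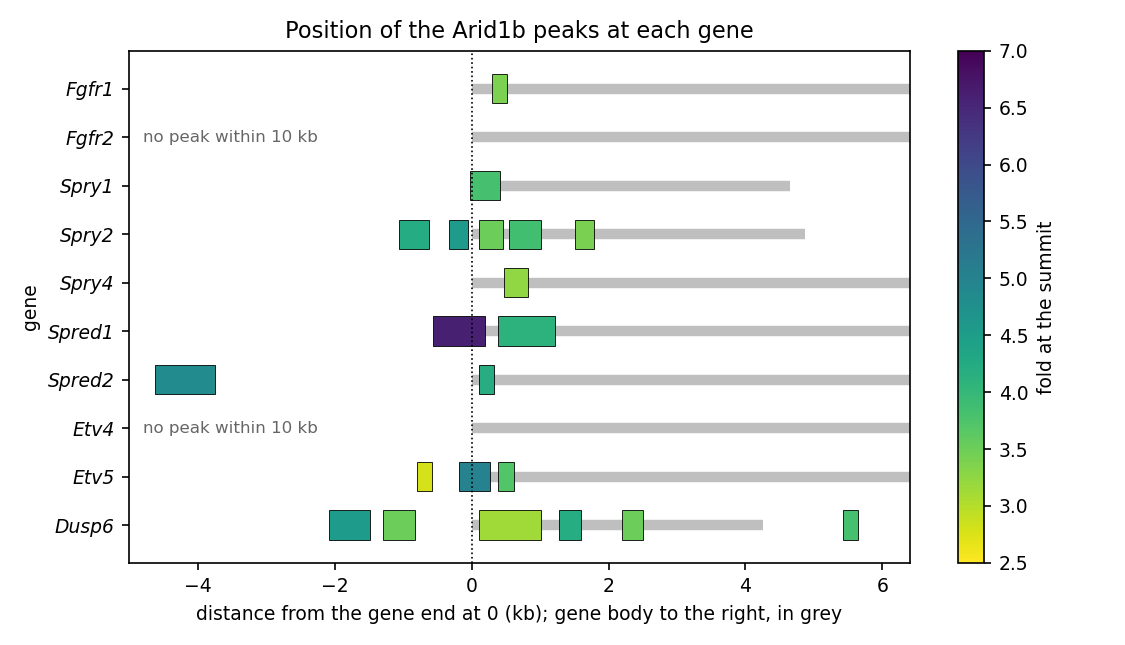
Arid1b peaks (boxes, coloured by fold) against distance in kb from the gene end set at 0, with the gene body in grey to the right; 0 is the RefSeq start site, or for Fgfr1 and Spry4 the end nearest to the peak, and for Etv4 either end. Spry2 and Dusp6 carry 5 and 6 peaks, and 8 of 10 genes have a peak within 1 kb of an end.

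Spry2 and Dusp6 together held 11 of the 21 peaks, and the 6 other genes with a peak held 10. Of all protein-coding genes, 272 (1.24%) had at least 5 peaks near the gene and 155 (0.708%) had at least 6. Both genes are under 5 kb, as is Spry1, which had 1 peak. Among the 5034 protein-coding genes of 5 kb or less, 71 (1.41%) had at least 5 peaks and 41 (0.814%) at least 6. These counts depend on how closely spaced peaks are divided. With peaks closer than 500 bp merged, the 10 genes held 12 peaks in place of 21. Spry2 then had 1, like Spry1 and Spry4, and 31.7% of all protein-coding genes had at least that many. Dusp6 had 4, a count that 141 genes (0.644%) reached. Spred2 kept 2, and Spred1 and Etv5 had 1 each.

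Around start sites, the peaks of these genes sat on both sides of the start. For the 6 genes with a RefSeq start site and a peak, 12 of 19 summits lay downstream of the start and 7 upstream. For each of these genes the outermost listed start was used, whereas the start sites of all genes below include inner ones. A summit 1 to 300 bp downstream was present at 4 of the 6 genes, namely Spry1, Spry2, Spred2 and Etv5, and one 1 to 300 bp upstream at 2, Spry2 and Spred1. Over the 4953 protein-coding start sites with a peak within 1 kb, 49.3% had a summit in that stretch downstream and 18.7% upstream. The start base itself lay under a peak at 3 of the 6 genes (Spry1, Spred1 and Etv5). The inner start site of Etv5, with a peak within 1 kb, lay under none. Of the 4953 start sites, 23.6% lay under a peak. Over those start sites, the share under a peak was highest 200 bp into the gene, at 62.5%, and had a lower maximum of 24.7% at 200 bp upstream, with 20.7% at 50 bp upstream between them. The strongest peak of the 21, at Spred1, had its summit on the upstream side, whereas the strongest at Etv5 had it downstream.

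**Figure D3:**
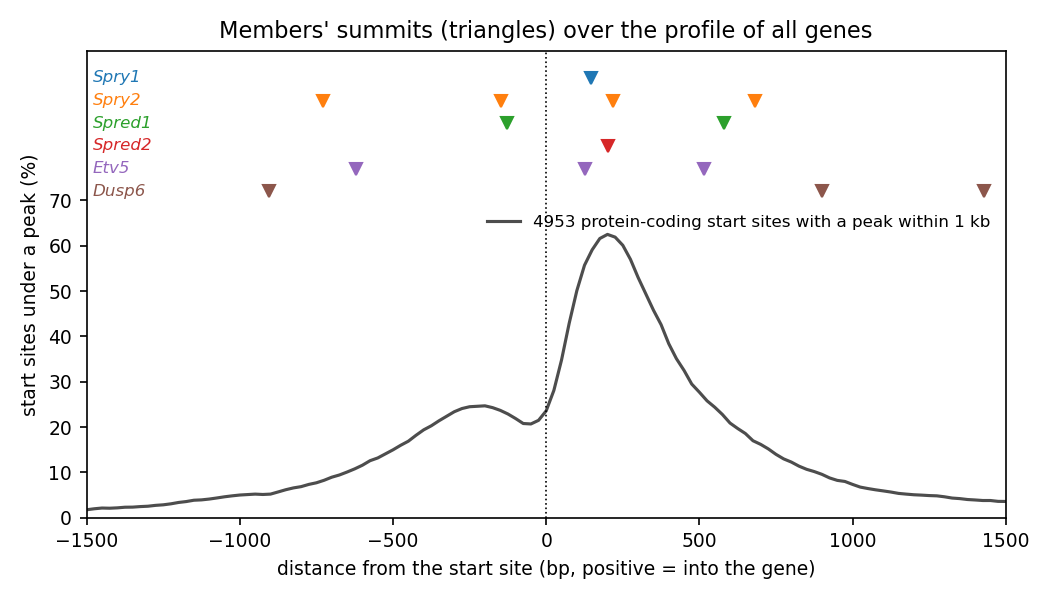
Share of the 4953 protein-coding start sites with a peak within 1 kb that lie under an Arid1b peak (line, %), against distance from the start site in bp; triangles mark each summit of 6 FGF genes within the range plotted. The line peaks 200 bp into the gene at 62.5%, where Spry2 and Spred2 have summits, and the nearest Dusp6 summits are 906 bp upstream and 900 bp downstream.

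The share of start sites with an Arid1b peak was higher in classes of higher promoter CpG content. Of start sites with 31 to 67 CpG in the window of 300 bases, 54.0% had a peak within 1 kb, and of those with 3 to 5 CpG 2.83% did. Spred1 and Etv5 were in the highest class, and Fgfr2 in the class of 3 to 5. Spry1 and Spry2 were in the class of 21 to 30 CpG, where 41.0% of start sites had a peak within 1 kb. Spred2, Dusp6 and the inner start site of Etv5 were in the class of 11 to 20, where 27.9% did. The start sites share 1 library and 1 peak list, and CpG content was not separated from expression or from chromatin access, so its part in the result was not tested.

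**Figure D4:**
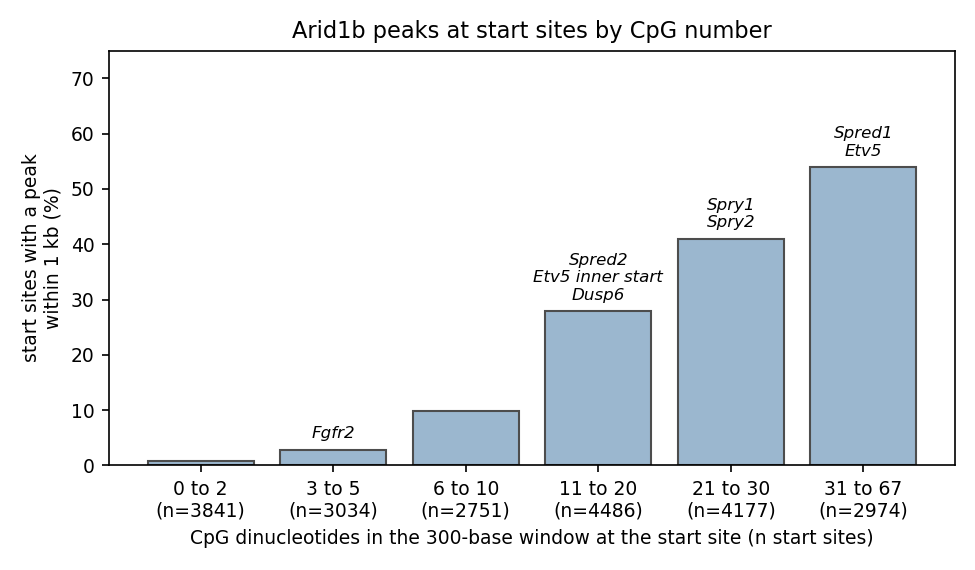
Share of protein-coding start sites with an Arid1b peak within 1 kb (%, bars from 0) by number of CpG in the 300-base window, with the FGF genes named over their class. The share is 54.0% in the class of 31 to 67 CpG, which holds Spred1 and Etv5, and 2.83% in the class of 3 to 5, which holds Fgfr2.

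Short motifs were searched on both strands of the 8 promoter windows of the 7 genes, and a match is a run of letters only. No matches to different motifs overlapped in these windows. The GC box, searched as GGGCGG, was in 4 of the 8 windows, those of Spry1, Spred1, Spred2 and the outer start site of Etv5, and in 46.2% of all promoter windows. The Spred1 and Etv5 windows held 3 each. The letters of the CCAAT box were in 5 of 8 and in 38.2% of all, and the outer Etv5 window held 3 matches, beginning 237, 142 and 110 bp before the start site. At least 3 were present in 3.92% of all windows. The ETS letters searched, CCGGAA, were in 1 window, that of Spry2, at 33 to 38 bp after the start site and outside the peaks, and in 18.7% of all windows. An E-box, CACGTG, was in 1, that of Fgfr2, and in 7.84% of all. The TEAD letters, GGAATG, were in 1, that of Spry1, and in 13.6% of all. The AP-1 letters, TGANTCA, were in 0 of 8 and in 6.99% of all. The CRE letters, TGACGTCA, were in 0 of 8 and in 2.23% of all.

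The share of genes with a peak varied between lists of other pathway components, and this variation was not tested. Of 22 FGF ligand genes, 3 (13.6%) had a peak near the gene, namely Fgf8, an epithelial signal of early teeth, Fgf9 and Fgf11. The Fgf8 peak reached 4.34 (3.14 to 5.85) with its summit 6416 bp outside the gene, and the higher of 2 Fgf9 peaks reached 4.27 (3.12 to 5.72) inside the gene. The Fgf11 peak, at 3.61 (2.53 to 5.01), was the only one of the 3 within 1 kb of a gene end. The remaining receptor and coreceptor genes, Fgfr3, Fgfr4, Fgfrl1, Kl and Klb, had 0 of 5.

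Genes acting between the receptors and ERK, some of which restrain the signal, often had peaks. Of 25 adaptor and RAS-ERK genes, 20 (80.0%) had a peak near the gene and 18 within 1 kb of an end. The highest were at the adaptor gene Shc1, at 7.54 (5.92 to 9.47), Nras at 6.30 (4.83 to 8.08), the RAS activator gene Sos2 at 5.06 (3.76 to 6.68) and the phospholipase gene Plcg1 at 4.85 (3.58 to 6.44). The Shc1 summit lay 6600 bp outside that gene, whereas the other 3 lay inside their genes. Which gene the Shc1 peak belongs to was not tested, nor was this tested for the Fgf8 peak above. Mostly these genes had few peaks, with a median of 1 and at most 4. Of the 10 genes described here, only Spry2, with 5, and Dusp6, with 6, had more than 4. Merging peaks closer than 500 bp left those genes with 1 and 4.

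Of 18 other feedback inhibitor genes, 8 (44.4%) had a peak. The 8 of 10 in the set described here also counts receptors and ETS factors, and the inhibitor genes of that set all had a peak. Dusp1, the gene of a nuclear MAP kinase phosphatase, had 9, the highest at 4.24 (3.08 to 5.69), and Dusp10 had 2, Flrt2 1 and Rasa3 4, with highest folds of 4.13, 3.92 and 3.85. Within the families, Spred3 carried 3 peaks with a highest fold of 3.35 (2.34 to 4.67), and Spry3 had none. Of the 10 Dusp phosphatase genes in this list, 5 had a peak (Dusp1, Dusp2, Dusp4, Dusp10 and Dusp16) and 5 had none (Dusp5, Dusp7, Dusp8, Dusp9 and Dusp14). Of 18 genes of heparan sulphate proteoglycans and their enzymes, 10 (55.6%) had a peak, highest at Hs2st1 (4.78, 3.56 to 6.29), Ext2 (4.65, 3.40 to 6.20), Sdc4 (4.60, 3.38 to 6.13) and Gpc6 (4.54, 3.32 to 6.08). The share of each list stands beside the 31.7% of all protein-coding genes, and differences between lists were not tested. These lists, too, were chosen with earlier results of these data known.

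**Figure D5:**
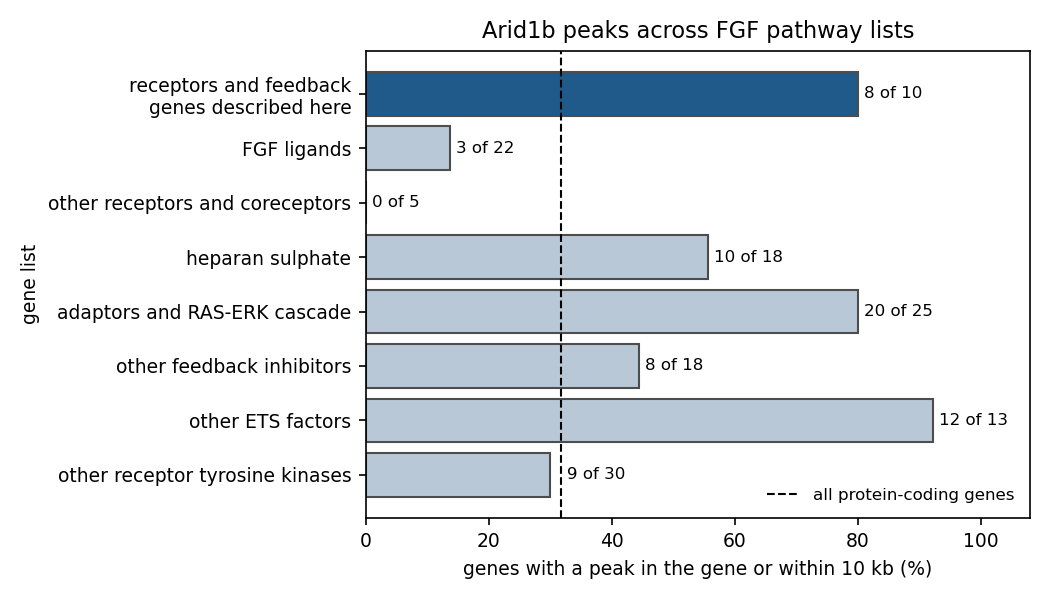
Percentage of genes (x axis, bars from 0) with an Arid1b peak near the gene (10 kb) for the 10 genes described here and for other FGF pathway and related lists, with counts beside the bars and all protein-coding genes, 31.7%, as the dashed line. Ligands (13.6%) and other receptors (0 of 5) stand below the line, and adaptor and RAS-ERK genes (80.0%) above it.

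The peak list holds no expression, so the labelled cell type could not be checked by RNA. ChIP of this kind cannot tell a site occupied in few cells from weak occupancy in many.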

How the data were processed

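Arid1b ChIP and input DNA of cultured mouse dental mesenchyme cells were sequenced, 1 library each. The submitters' processing notes name FastQC 0.11.8, Bowtie2 2.2.5, Picard, MACS2 2.1.1 and mm10, without roles or parameters. Neither read numbers nor duplicate removal were given in the sources used here. The deposited narrow peak list has no header, and its layout gives for each peak a position, the authors' fold enrichment (a linear ratio), the authors' -log10 p-value and -log10 q-value, a deposited score (not used) and the summit.

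Summit pileup and expected level were recovered from fold and p-value, with 1 added to each level in the fold and the p-value read as a Poisson tail. A whole pileup matched the deposited -log10 p to 0.001 for 100% of the list (worst case 0.000162). Intervals of folds are exact Poisson 95% intervals of pileups over a fixed expected level. The recovery was tested on data simulated with the same formula, and the overlap counts on a small constructed example. The background is the commonest expected level. Any part of a peak counted as within a window. Genes came from the RefSeq table of GRCm38.p6 (mitochondrial genes left out), and start sites, strand and sequence from its promoter table, which held 17492 of 21887 protein-coding genes. Coordinates are 1-based. Python 3.11.15, pandas 2.3.3, NumPy 2.4.6 and SciPy 1.17.1 were used. With 1 library a group no test was made, and shares of all protein-coding genes serve as background.

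The 10 genes and the other lists were chosen with earlier results of these data known. All 10 genes were named with every peak, and of each other list up to 4 genes with the highest fold. The naming of Spred3, Dusp2, Dusp4, Dusp16, Etv1 and genes that lack a peak, and the gene length limit of 5 kb, the CpG classes, the motifs and the stretches beside start sites, were chosen after values were seen. Alternatives covered stricter q-values, other windows, summits, merged peaks and peaks at background. Lists of cell type markers are not reported here.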

Additional observations from a re-analysis of the deposited data

How the results depend on the processing

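Among 23 alternative counts, 16 were within 1.5 times the reported count and 7 were not. A wider window cannot lower a count of genes, which is at most 10, and merging cannot take away a gene's only peak. Several of the 16 therefore could not have moved, and this tally does not measure robustness. Of the counts within 1.5 times, the peak count was lowest inside the genes alone, at 14, and highest for a window of 50 kb, at 26, against 21. With -log10 q of at least 10, 5 of the 10 genes had a peak near them (16.0% of all protein-coding genes), 10 peaks were left and 4 genes had one within 1 kb of an end (10.5%). Fgfr1, Spry1 and Spry4 then had none, and Dusp6 kept none at its ends. With peaks closer than 500 bp merged, the 8 genes held 12 peaks, and Spry2 held 1 in place of 5. Over peaks whose expected level was the genome background, 5 genes had a peak (17.4%), 11 peaks were left and 4 genes had one at an end, since Fgfr1, Spry1 and Spry4 had none and Spred2 had none at its ends. The expected level at Spry1 was 8.69, against a background of 8.68. With the stricter q and at background the lists of peaks were shorter, and the shares of all genes were lower too. A window of 50 kb added Etv4 (9 of 10, against 48.5% of all protein-coding genes), and windows of 500 bp and 5 kb at gene ends left 8 genes. Pileups between 26 and 63 fragments limit the ranking of single peaks. No paired analysis was possible because each group holds 1 library.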

Other observations

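Of 13 ETS factor genes other than Etv4 and Etv5, 12 (92.3%) had an Arid1b peak near the gene (10 kb), against 31.7% of all protein-coding genes. Within 1 kb of an end, 9 (69.2%) had one, against 22.2% of all protein-coding genes. This list was also chosen with earlier results of these data known, so its share cannot measure an enrichment. The highest were at Elf1, with 5.16 (3.85 to 6.79), Etv6, a repressor of the family, with 4.85 (3.58 to 6.44), Erf, a repressor that ERK controls, with 4.54 (3.32 to 6.08), and Elk3 with 4.42 (3.34 to 5.75). Gabpa had none. Etv1, which belongs to the PEA3 group with Etv4 and Etv5, had 1 peak at 3.72 (2.62 to 5.13), where Etv5 had 3 and Etv4 had 0.

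Of 30 other receptor tyrosine kinase genes, 9 had a peak near the gene, close to the 31.7% of all protein-coding genes. Igf1r, the receptor gene for insulin-like growth factors, had 6, the highest at 5.68 (4.29 to 7.38), and Axl had 4, the highest at 5.23 (3.97 to 6.76). Mertk reached 4.03 (2.88 to 5.49) and Pdgfrb 3.82 (2.71 to 5.25). Over the 9 genes, the highest fold ran between 2.45 and 5.68 with a median of 3.41. Fgfr1, with 1 peak of 3.38, lay within that range and just below the median. Differences between lists were not tested.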
